A study of Mus musculus with 12 samples.

Results

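A group of receptor genes of myeloid cells was followed: Fcgr1, Fcgr2b, Fcgr3 and Fcgr4, the receptors for the constant (Fc) part of IgG antibodies; Fcer1g, the signalling chain that several of them share; the Fc receptor-like gene Fcrls; the leukocyte immunoglobulin-like receptors Lilrb4a and Pirb; and the cell surface receptors Cd22 and Cd84. The 10 genes were chosen by symbol, from 26639 listed features in white adipose tissue (WAT) and 22851 in cultured adipocytes. Fcrls and Lilrb4a were picked for the pattern they show in these data, so their values are given as a description without a p-value. The other 8 genes form a receptor group that was also chosen with results of these data in view.

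The RNA came from mice in which Xap5 (gene symbol Fam50a) was deleted in mature adipocytes (Adiponectin-cKO) and from Xap5 wild-type (WT) mice. Each of 4 groups had 3 libraries: WAT of WT mice and of cKO mice at postnatal day 42, and adipocytes of WT and of knockout (KO) mice on day 8 of adipogenic induction. The cultures were grown from preadipocytes of newborn subcutaneous fat of WT or cKO pups and were induced with insulin, dexamethasone and IBMX, so all 6 cultures shared these agents. The deletion is driven from the adiponectin promoter, which is active in fat cells and not in macrophages, and both WAT and culture libraries hold RNA of all cells present. Whether the libraries came from separate animals or cultures is not stated in the labels, nor whether the WT mice carried Cre, nor which sex was used. The p-values therefore measure the spread between these libraries, which may be technical.

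Fc receptors let phagocytes sense antibody-coated particles. Activating receptors such as Fcgr1, Fcgr3 and Fcgr4 signal through the activation motif (ITAM) of Fcer1g, which is phosphorylated by Src-family kinases such as Lyn and then binds the kinase Syk. Inhibitory receptors carry an inhibition motif (ITIM) in their own tail and recruit phosphatases such as Ptpn6 (SHP-1) and Inpp5d (SHIP1): Fcgr2b does so for IgG, Pirb and Lilrb4a for ligands that include MHC class I molecules and other surface or secreted proteins, and Cd22 for sialic acid sugars. Cd84 is a SLAM-family receptor that binds itself on neighbouring cells. In fat, these genes are known mainly from tissue macrophages, while Cd22 is best known from B cells and Fcrls is used as a marker of microglia and some tissue macrophages.

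In the mouse genome (GRCm38, RefSeq), Fcgr2b (chr1:170960558-170976071), Fcgr4 (chr1:171018926-171029761), Fcgr3 (chr1:171051169-171065915), Fcer1g (chr1:171229572-171234349) and Cd84 (chr1:171839697-171890718) lie on chromosome 1, and Fcrls (chr3:87250736-87263765) and Fcgr1 (chr3:96282909-96293969) on chromosome 3. Pirb (chr7:3712505-3720382) and Cd22 (chr7:30865404-30880342) are on chromosome 7, and Lilrb4a (chr10:51490898-51496613) is on chromosome 10. RefSeq promoter windows of GRCm38.p6 were found for 9 of the 10 genes, all but Lilrb4a. The 250 bases before the annotated start are shown for 4 genes whose reads were much higher in cKO than in WT WAT and that hold the letters GAGGAA on either strand (TTCCTC when read on the other strand), a purine-rich form bound by the ETS-family factor PU.1 (Spi1), and for Fcgr2b, the inhibitory IgG receptor, which has no such match. Capitals mark the match, and each sequence is written 5′ to 3′ on the strand of its gene.
Fcgr1, chr3:96293970-96294219, minus strand: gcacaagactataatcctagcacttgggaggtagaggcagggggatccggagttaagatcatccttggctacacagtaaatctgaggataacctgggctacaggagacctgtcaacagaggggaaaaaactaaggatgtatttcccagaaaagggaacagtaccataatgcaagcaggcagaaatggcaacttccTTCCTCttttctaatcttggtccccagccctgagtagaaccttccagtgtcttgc
Fcgr3, chr1:171059404-171059653, minus strand: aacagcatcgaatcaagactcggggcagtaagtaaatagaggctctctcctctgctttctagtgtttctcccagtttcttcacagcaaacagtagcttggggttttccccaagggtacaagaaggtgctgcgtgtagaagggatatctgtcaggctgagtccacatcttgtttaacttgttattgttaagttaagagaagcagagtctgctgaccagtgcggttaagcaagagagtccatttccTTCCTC
Fcgr4, chr1:171018676-171018925, plus strand: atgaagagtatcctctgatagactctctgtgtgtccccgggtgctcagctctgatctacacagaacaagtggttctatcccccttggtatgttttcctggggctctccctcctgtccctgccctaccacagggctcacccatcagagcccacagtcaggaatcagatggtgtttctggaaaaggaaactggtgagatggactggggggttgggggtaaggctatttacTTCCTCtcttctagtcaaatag
Pirb, chr7:3720383-3720632, minus strand: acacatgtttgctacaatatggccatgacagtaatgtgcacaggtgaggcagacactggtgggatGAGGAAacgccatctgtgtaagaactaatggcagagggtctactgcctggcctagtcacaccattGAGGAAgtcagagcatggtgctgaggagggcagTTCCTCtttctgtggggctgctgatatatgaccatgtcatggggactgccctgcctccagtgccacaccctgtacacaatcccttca
Fcgr2b, chr1:170976072-170976321, minus strand: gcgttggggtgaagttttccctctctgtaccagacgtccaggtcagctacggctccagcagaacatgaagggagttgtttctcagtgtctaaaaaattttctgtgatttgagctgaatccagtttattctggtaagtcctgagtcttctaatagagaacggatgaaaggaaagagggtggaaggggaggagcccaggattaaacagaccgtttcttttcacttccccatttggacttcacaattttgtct
The match of Fcgr1 began 55 bases before the start, that of Fcgr4 began 22 bases before it and that of Fcgr3 began 6 bases before it. In another RefSeq window of Fcgr3, not shown, the same match began 15 bases before the start. Both windows of Fcgr3 lie inside the gene span given above, so they precede internal starts. The window of Cd22 (chr7:30879029-30879278) also lies inside its gene span. That of Fcrls (chr3:87263525-87263774) lies almost wholly inside its own, so these windows precede internal starts as well. Pirb held 3 matches, 185, 120 and 87 bases before its start, and Fcrls held 1, 144 bases before its start. Over 250 bases, 5 of the 9 genes (55.6%) held a match, beside 23.3% of all 32851 RefSeq windows of that length. Over the last 60 bases, 3 of 9 genes (33.3%) held one, beside 6.08% of all windows. The genes are counted by a match in any of their windows and the background by single windows, so these units differ. Fcgr2b, Fcer1g, Cd22 and Cd84 had no match in these windows; the shorter GGAA core that ETS-family factors share was not counted and also occurs in windows without a match, such as that of Fcgr2b. Ratios of mean cKO to mean WT level in WAT were 8.74 (Fcgr1), 5.24 (Fcgr3), 4.17 (Fcgr4), 9.60 (Pirb) and 2.02 (Fcrls) with a match. Without a match they were 2.57 (Fcgr2b), 6.03 (Fcer1g), 22.6 (Cd22) and 37.8 (Cd84). A link between match and rise was not tested. A match describes letters and is not evidence of binding, and no match says only that these letters are not in this window.

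Read totals per library ran from 28844370 to 33997204 in WAT and from 10863158 to 21773610 in the cultures, with KO replicates 2 and 3 the deepest cultures. Levels are read counts scaled to a common depth (CPM) with edgeR's TMM factors, and "called" means an adjusted p under 0.05 in edgeR's quasi-likelihood test over all genes tested. The deleted gene, Fam50a, measured 32.5 to 36.5 CPM in WT and 16.8 to 28.9 CPM in cKO libraries of WAT (log2 fold change -0.60, SE 0.20, edgeR adjusted p = 0.0395), and the fitted change was 0.09 when only library size was used. In the cultures it was at 45.2 to 57.9 CPM in WT and 41.1 to 46.2 CPM in KO (-0.26, SE 0.12, edgeR adjusted p = 0.134). The labelled tissue showed its markers: 8 adipocyte genes summed to 60401 to 63826 CPM in WT WAT and 7583 to 19305 CPM in cKO WAT. In the cultures they summed to 18422 to 20109 CPM in WT and 24510 to 29191 CPM in KO. In WAT 52.4% of 16293 genes were called, 4595 (28.2%) higher and 3947 (24.2%) lower in cKO. With library size as the only scaling, 8838 were higher and 1427 lower, and the median gene moved up by 0.68 on the log2 scale, so fold changes in WAT hold relative to that choice.

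All 10 genes were higher in cKO than in WT WAT, in every library, and the difference ran from about 2-fold for Fcrls to 37.8-fold for Cd84. The activating receptors and their chain Fcer1g rose 4.17- to 8.74-fold, the inhibitory receptors Fcgr2b and Pirb rose 2.57- and 9.60-fold, and Cd22 and Cd84 rose the most of the 8 genes tested. All 8 were called higher, where 28.2% of all genes tested were. The groups of these 8 did not overlap, where 35.1% of all genes had every cKO library above every WT library and 29.3% every one below. Fcrls and Lilrb4a did not overlap either, but were picked for their pattern and are left out of that comparison. The median log2 fold change of the 10 was 2.86 and that of all genes 0.12. The first value includes the picked Fcrls and Lilrb4a, so it is a description only. These are bulk tissues, so more cells of a type and more RNA per cell cannot be told apart.

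**Figure D1:**
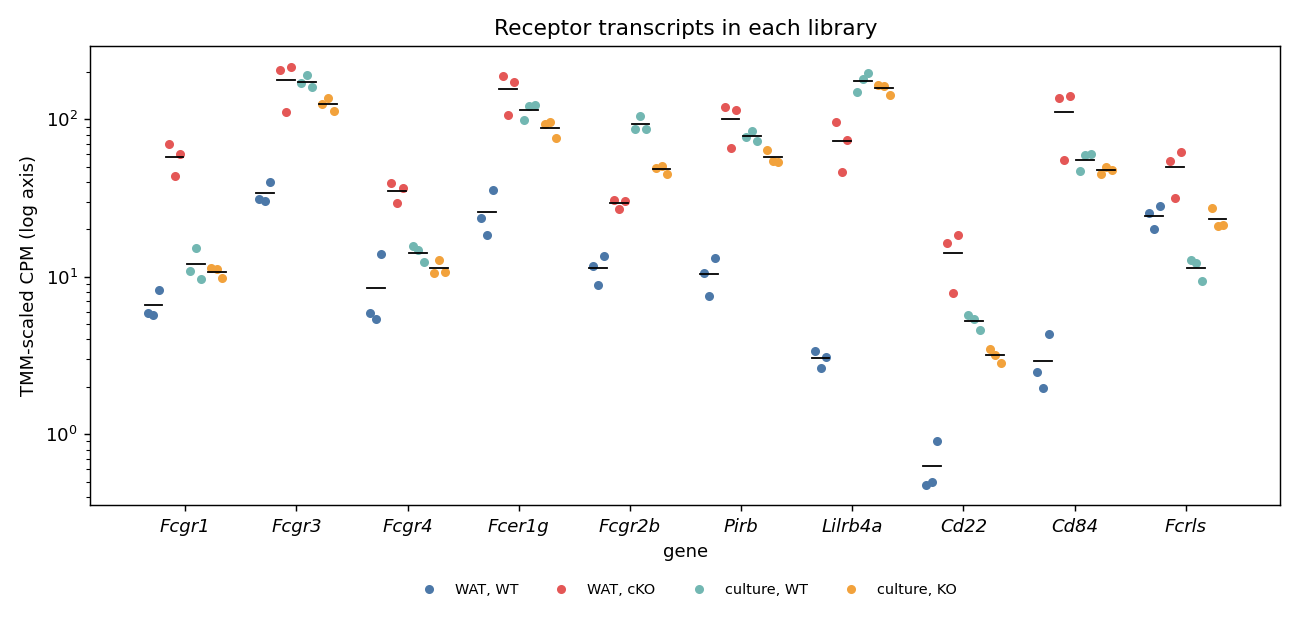
Level of each of the 10 genes (TMM-scaled CPM, log axis) in the 12 libraries, by group; each point is 1 library and each line a group mean. In WAT every cKO point lies above every WT point for all 10 genes; in the cultures the groups overlap for 4 genes, 5 genes are lower in every KO library and Fcrls is higher in every KO library.

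Among the activating receptors, Fcgr1, which binds single IgG molecules with high affinity, was at 5.88, 5.72 and 8.27 CPM in the WT libraries and at 69.4, 43.7 and 60.6 CPM in the cKO libraries (log2 fold change 3.13, SE 0.24, edgeR adjusted p = 0.000434). The lowest cKO library was thus several times the highest WT library. Fcgr3, the low-affinity receptor that binds immune complexes, measured 31.1, 30.5 and 40.0 CPM in WT libraries against 205, 111 and 216 CPM in cKO libraries (2.39, SE 0.27, edgeR adjusted p = 0.000834). Fcgr4, a receptor of intermediate affinity for IgG2 subclasses, measured 5.92, 5.38 and 14.1 CPM in WT libraries against 39.6, 29.6 and 36.4 CPM in cKO libraries (2.06, SE 0.38, edgeR adjusted p = 0.00391). WT replicate 3 was the highest WT library for Fcgr4 and still lay below the lowest cKO library. Fcer1g, the chain needed for their surface expression and signalling, measured 23.6, 18.5 and 35.4 CPM in WT libraries against 187, 107 and 174 CPM in cKO libraries (2.59, SE 0.31, edgeR adjusted p = 0.000926).

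The inhibitory receptors were spread over a wider range. Fcgr2b showed the smallest change of the 8 genes tested, from 11.7, 8.93 and 13.6 CPM in WT to 30.7, 27.2 and 30.1 CPM in cKO (log2 fold change 1.36, SE 0.18, edgeR adjusted p = 0.00128); its edgeR adjusted p was 0.0714 when the test asked for a change of more than 2-fold. Pirb measured 10.5, 7.55 and 13.1 CPM in WT libraries against 119, 66.2 and 115 CPM in cKO libraries (3.26, SE 0.30, edgeR adjusted p = 0.000604). The 2 groups of Pirb were therefore separated by a far wider gap than those of Fcgr2b. Lilrb4a went from 3.40, 2.63 and 3.10 CPM to 96.8, 46.4 and 74.5 CPM, a 23.8-fold ratio of means (log2 fold change 4.57, SE 0.31). Lilrb4a has a near-identical neighbour, Lilr4b, and Pirb has near-identical Pira relatives; how reads shared by such copies were counted is not given in the sources used here, so each value is uncertain by that split.

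Cd84 and Cd22 started from very low levels in WT WAT. Cd84 measured 2.48, 1.96 and 4.34 CPM in WT libraries against 136, 55.4 and 141 CPM in cKO libraries (log2 fold change 5.24, SE 0.48, edgeR adjusted p = 0.000598). Cd22 was at 0.479, 0.501 and 0.909 CPM in WT, which is 11, 12 and 22 reads, and at 16.3, 7.94 and 18.5 CPM in cKO (4.49, SE 0.45, edgeR adjusted p = 0.000633). Its fold change is the least precise in counting terms, since so few reads stand behind the WT values. Fcrls had the smallest difference of the 10 genes: 25.4, 20.0 and 28.0 CPM in WT and 54.1, 31.8 and 62.5 CPM in cKO (log2 fold change 1.02, SE 0.26). The lowest cKO library for Fcrls lay just above the highest WT library.

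The replicate 2 library of cKO WAT was the lowest cKO library for all 10 genes. Its summed level of 18 macrophage markers was also the lowest of the cKO libraries, at 3547 CPM beside 6882 and 7287 CPM, with 771 to 1172 CPM in WT. Without that library all 8 tested genes were still called, with log2 fold changes of 3.27 for Fcgr1, 1.39 for Fcgr2b, 4.75 for Cd22 and 5.53 for Cd84. Leaving out any other single WAT library also left all 8 called.

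In the cultures none of the 8 tested genes rose. Fcgr2b fell by 0.95 on the log2 scale in KO (SE 0.12, edgeR adjusted p = 8.82e-06), and Fcgr3, Fcer1g, Pirb and Cd22 fell by less. Fcgr1, Fcgr4 and Cd84 did not pass the test, and the 2 groups overlapped for these and for Lilrb4a. Fcrls, which has no p, had every KO library above every WT library. Of the 8 genes with a p, 5 were called lower and 0 higher; of 12587 genes, 19.5% were called, 10.6% lower and 8.94% higher. Of the same 8, the groups did not overlap for 5 genes lower in KO, where 18.8% of all genes were so placed, and for 0 higher, where 18% were. The split of all called genes was 1125 higher and 1334 lower, and 786 higher and 1765 lower with library size as the only scaling.

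Fcgr2b was at 86.9, 105 and 86.8 CPM in the WT cultures and at 48.9, 50.2 and 45.3 CPM in the KO cultures. No KO library came near the lowest WT library, and the call held without any single library. Fcgr3 measured 169, 191 and 161 CPM in WT libraries against 125, 137 and 114 CPM in KO libraries (log2 fold change -0.47, SE 0.11, edgeR adjusted p = 0.00545). Fcer1g measured 99.2, 122 and 124 CPM in WT libraries against 93.1, 96.2 and 76.1 CPM in KO libraries (-0.38, SE 0.12, edgeR adjusted p = 0.0292). For Fcer1g the highest KO library lay only just below the lowest WT library. Pirb measured 77.1, 84.4 and 72.4 CPM in WT libraries against 64.3, 54.02 and 53.97 CPM in KO libraries (-0.44, SE 0.12, edgeR adjusted p = 0.00974). Cd22 measured 5.74, 5.38 and 4.59 CPM in WT libraries against 3.47, 3.20 and 2.83 CPM in KO libraries (-0.74, SE 0.23, edgeR adjusted p = 0.0247).

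These 4 smaller falls depended on single libraries. Without WT replicate 2 only Fcgr2b was still called (1 of 8), and the edgeR adjusted p was 0.0772 for Fcgr3, 0.172 for Fcer1g, 0.101 for Pirb and 0.0999 for Cd22. The call of Fcer1g was also lost without WT replicate 3 (0.0604) or KO replicate 3 (0.145), that of Pirb without KO replicate 2 (0.0697), and that of Cd22 without WT replicate 1 (0.0961), KO replicate 2 (0.073) or KO replicate 3 (0.0867), all edgeR adjusted p-values. In 1 fit over all 4 groups, which shares the wider spread of WAT, only Fcgr2b kept its call.

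Among the culture genes without a call, Fcgr1 measured 10.9, 15.3 and 9.74 CPM in WT libraries against 11.4, 11.1 and 9.89 CPM in KO libraries (log2 fold change -0.15, SE 0.18, edgeR adjusted p = 0.584). Fcgr4 measured 15.6, 14.7 and 12.4 CPM in WT libraries against 10.5, 12.8 and 10.7 CPM in KO libraries (-0.32, SE 0.16, edgeR adjusted p = 0.162). Cd84 measured 47.0, 59.2 and 60.3 CPM in WT libraries against 44.9, 50.1 and 48.0 CPM in KO libraries (-0.22, SE 0.12, edgeR adjusted p = 0.207). In each of the 3 genes some KO library exceeded some WT library. Lilrb4a measured 149, 179 and 196 CPM in WT libraries against 165, 164 and 143 CPM in KO libraries (log2 fold change -0.15, SE 0.12), so its values were interleaved as well. Fcrls measured 12.8, 12.2 and 9.35 CPM in WT libraries against 27.5, 20.9 and 21.2 CPM in KO libraries (log2 fold change 1.01, SE 0.16), a ratio of means of 2.02, the same as in WAT.

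**Figure D2:**
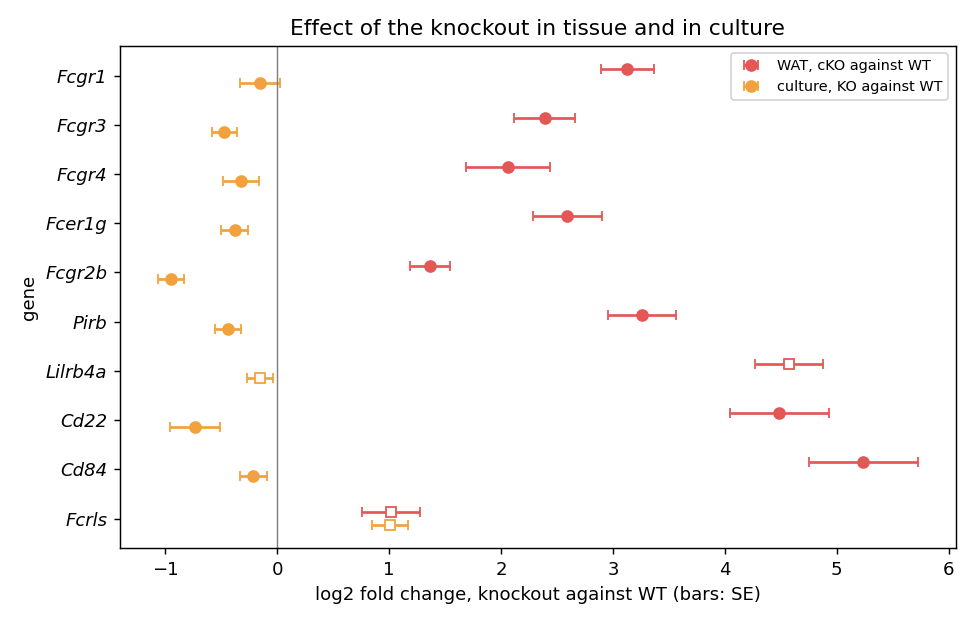
Log2 fold change (KO over WT) of the 10 genes in WAT and in the cultures, with bars of 1 SE; open squares mark Fcrls and Lilrb4a, which were picked for their pattern. The WAT values run from 1.02 for Fcrls to 5.24 for Cd84, and the culture values lie between -0.95 and -0.15 except for Fcrls at 1.01.

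The difference between both settings was tested directly, as the WAT log2 fold change minus the culture log2 fold change in 1 fit over all 12 libraries. All 8 genes with a p were called higher in this comparison, where 27.7% of 14463 genes were, with 21.1% lower and 48.8% in either direction. Fcgr2b, which rose in WAT and fell in culture, differed by 2.35 (SE 0.21, edgeR adjusted p = 6.66e-06), and Cd84 by 5.49 (SE 0.47, edgeR adjusted p = 5.81e-06). Fcrls differed by 0.04 (SE 0.33) and Lilrb4a by 4.76 (SE 0.32). With library size as the only scaling the value of Fcrls was 0.70.

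The balance among the 4 IgG receptor genes shifted away from the inhibitory receptor. Of the reads on Fcgr1, Fcgr2b, Fcgr3 and Fcgr4 together, Fcgr2b took 21.4% (95% Clopper-Pearson interval 19.2 to 23.8), 17.7% (15.6 to 20.0) and 17.9% (16.1 to 19.7) in WT WAT. It took 8.90% (8.44 to 9.37), 12.8% (12.1 to 13.5) and 8.79% (8.35 to 9.25) in cKO WAT, so the groups did not overlap. The means were 19.0% ± 2.11 and 10.2% ± 2.29 (SD, n = 3 each). In the cultures the share was 30.7% (29.2 to 32.3), 32.2% (30.8 to 33.7) and 32.2% (30.6 to 33.8) in WT and 25.0% (23.2 to 26.9), 23.8% (22.5 to 25.0) and 25.2% (23.8 to 26.7) in KO, again without overlap. The intervals cover counting error only. In WAT, where Fcgr2b itself rose, its share was lower while the activating receptors rose more, and in culture its own level fell too.

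Fcgr1 showed the opposite shift within the family. Its share was 10.99% ± 0.294 in WT WAT and 19.5% ± 1.58 in cKO WAT, and 4.05% ± 0.558 in WT and 5.53% ± 0.268 in KO cultures (SD, n = 3 each). Fcgr3 took the largest share of the reads in all 4 groups, with means of 56.7% and 58.3% in WT and cKO WAT and of 59.3% and 64.0% in WT and KO cultures. Fcgr4 held 13.3% and 12.03% in WAT and 4.88% and 5.80% in culture. Per merged exon length, the share of Fcgr2b was 6.48% in WT WAT, 3.36% in cKO WAT, 12.2% in WT cultures and 8.90% in KO cultures, so the direction did not depend on transcript length.

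**Figure D3:**
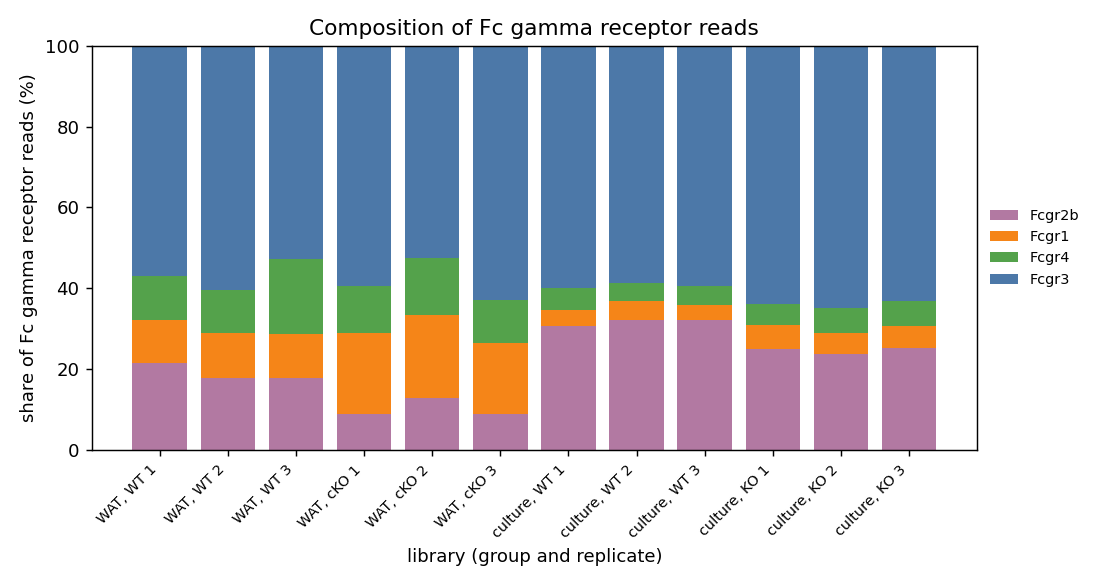
Share of the reads on the 4 IgG receptor genes (percent) taken by each gene, as 1 stacked bar per library, labelled by group and replicate. The Fcgr2b part, at the base, averages 19.0% in WT and 10.2% in cKO WAT, and 31.7% in WT and 24.7% in KO cultures.

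Levels can be compared between genes only per length, here as TMM-scaled CPM per kilobase of merged exons. In WT WAT the order was Fcer1g (29.5), Fcgr3 (19.5), Fcrls (10.5), Fcgr4 (6.73), Fcgr1 (2.56), Pirb (2.33), Fcgr2b (1.97), Lilrb4a (0.582), Cd84 (0.467) and Cd22 (0.125). The ranges over libraries of Fcer1g and Fcgr3 overlapped, as did those of Fcrls and Fcgr4, of Fcgr1, Pirb and Fcgr2b, and of Lilrb4a and Cd84. Overlap here and in the cultures below compares these ranges only. All genes were read in the same libraries, so an order can hold within every library despite an overlap. In cKO WAT Fcer1g (178) and Fcgr3 (102) were again the highest, and their ranges again overlapped. Fcgr4 (28.0), Pirb (22.4), Fcgr1 (22.4), Fcrls (21.2), Cd84 (17.7) and Lilrb4a (13.9) overlapped with their neighbours. Fcgr2b (5.06) and Cd22 (2.82) were the lowest, each apart from its neighbours. Thus Fcrls, the third in WT WAT, was the sixth in cKO WAT, within a run of overlapping genes.

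Per length the WT cultures had Fcer1g at 132, Fcgr3 at 100, Lilrb4a at 33.4, Pirb at 17.4, Fcgr2b at 16.1, Fcgr4 at 11.3, Cd84 at 8.85, Fcrls at 4.91, Fcgr1 at 4.63 and Cd22 at 1.04. The ranges of neighbours overlapped only for Pirb with Fcgr2b and for Fcrls with Fcgr1. In the KO cultures Fcer1g was at 101, Fcgr3 at 72.1, Lilrb4a at 30.1, Pirb at 12.8, Fcrls at 9.94, Fcgr4 at 9.03, Fcgr2b at 8.31, Cd84 at 7.60, Fcgr1 at 4.17 and Cd22 at 0.628. Fcrls, Fcgr4, Fcgr2b and Cd84 formed a run of overlapping neighbours there. WAT and cultures were scaled in separate tables, so levels across them are set side by side without a test.

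Most macrophage markers rose with the receptors in WAT, and a part of them fell in the cultures. In WAT 16 of 18 markers were called higher, where 28.2% of all genes were, and 0 lower. Their median log2 fold change was 2.69, led by the protease Ctss (4.86, SE 0.43) and the lysosomal protein Cd68 (4.30, SE 0.33). In the cultures 9 of 18 were called lower, where 10.6% of all genes were, and 0 higher, and the rest did not pass the test. The median of the 18 was -0.39 beside -0.02 for all genes. Their sum went from 4712 to 5248 CPM in WT to 3280 to 3858 CPM in KO. None of the 18 was at 0 in either setting. The part of these markers in the receptor values was not tested, but each receptor can be given per 1000 CPM of their sum.

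On that scale the 10 genes separated. Fcer1g was at 27.0 ± 3.13 in WT and 27.0 ± 3.11 in cKO WAT, and its libraries overlapped, as did those of Fcgr4 (8.57 ± 2.97 and 6.37 ± 1.76; SD, n = 3 each, as for all values of this kind). Cd84 went from 3.02 ± 0.605 to 18.2 ± 2.28, Lilrb4a from 3.31 ± 0.614 to 12.5 ± 1.99 and Cd22 from 0.657 ± 0.116 to 2.38 ± 0.150, each without overlap. These 3 genes, with ratios of 6.03, 3.77 and 3.62, were thus higher in cKO relative to the marker sum, and Pirb (1.57) and Fcgr1 (1.45) were higher by less, also without overlap. Fcrls went the other way, from 26.2 ± 2.46 to 8.47 ± 0.567, as did Fcgr2b, from 12.2 ± 1.00 to 5.42 ± 1.94, and Fcgr3, from 36.3 ± 2.83 to 30.3 ± 0.984. So the raw level of Fcrls was higher in cKO WAT while its level per macrophage marker was lower, at a ratio of 0.323.

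In the cultures, Fcrls per 1000 CPM of macrophage markers went from 2.32 ± 0.337 to 6.49 ± 1.09, a ratio of 2.80, opposite in direction to WAT. Fcgr2b went from 18.8 ± 1.10 to 13.4 ± 0.401, a ratio of 0.714 and the same direction as in WAT. The groups of Lilrb4a (ratio 1.24) and Cd22 (0.831) also did not overlap. Against the marker sum, the groups of Fcgr1, Fcgr3, Fcgr4, Fcer1g, Pirb and Cd84 overlapped, with ratios of 0.991 to 1.25. The falls of Fcgr3, Fcer1g and Pirb in CPM were thus not seen beyond the spread once set against the marker sum. When the markers were combined by a geometric mean instead, the groups of Cd22 overlapped and those of Cd84 did not.

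**Figure D4:**
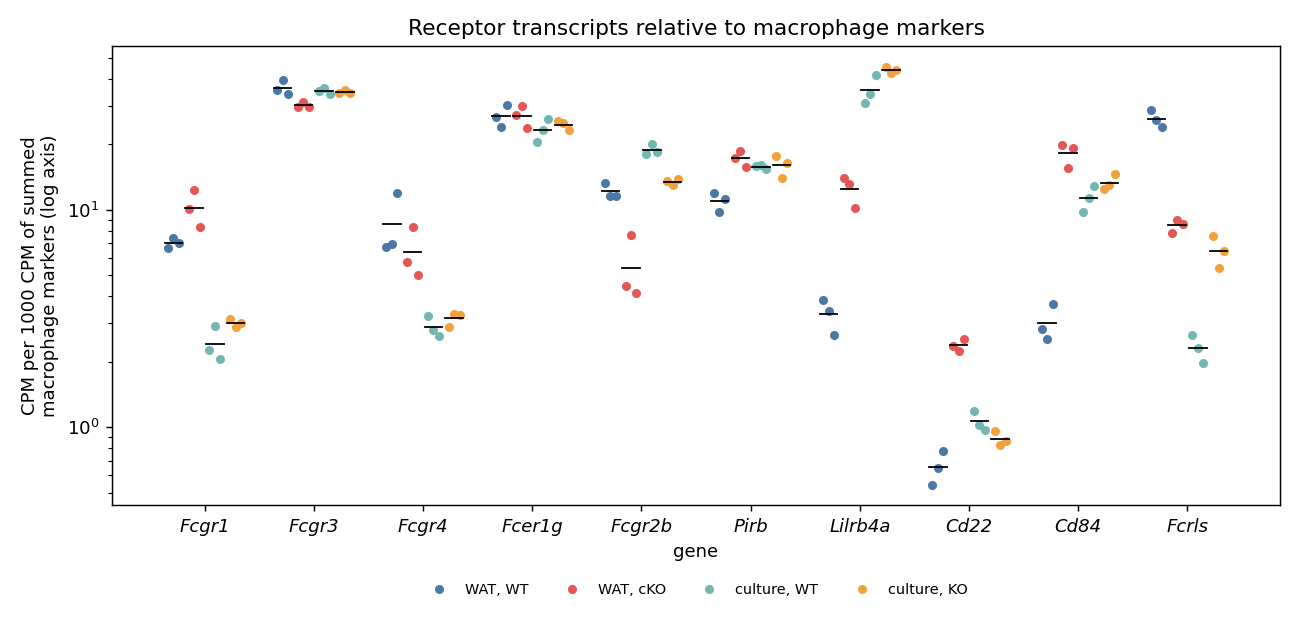
Level of each of the 10 genes per 1000 CPM of the summed 18 macrophage markers, by group (log axis); each point is 1 library and each line a group mean. In WT and cKO WAT the means are 3.02 and 18.2 for Cd84, 26.2 and 8.47 for Fcrls, and 27.0 in both for Fcer1g.

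The molecules downstream of these receptors were read from 2 lists. Of 24 genes of activating signalling, 23 were tested in WAT and 20 were called higher and 0 lower, with a median log2 fold change of 2.28. The largest rises were in the adaptors Blnk (4.38, SE 0.40) and Lat2 (4.28, SE 0.40) and in Sh2d1b1, an adaptor of SLAM-family receptors such as Cd84 (3.63, SE 0.50). Syk, the kinase bound by Fcer1g, measured 15.5, 19.6 and 25.1 CPM in WT libraries against 172, 104 and 192 CPM in cKO libraries. Of 12 genes of inhibitory signalling, 8 were called higher and 1 lower, with a median of 1.22. The largest rises were in the phosphatase-related Ubash3b (2.97, SE 0.35), the adaptor Dok2 (2.45, SE 0.28) and the phosphatase Ptpn6 (2.36, SE 0.33), which is recruited by Pirb, Cd22 and Lilrb4a. The broadly expressed phosphatase Ptpn11 fell by 0.60 (SE 0.14, edgeR adjusted p = 0.0108), but was at 0.08 with library size as the only scaling, under which 11 of the 12 were higher and 0 lower.

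In the cultures 19 activating genes were tested and 4 were called lower, 0 higher, with a median of -0.24. They were the ITAM chain Tyrobp (-0.67, SE 0.13), Syk (-0.43, SE 0.13), Blnk (-0.49, SE 0.14) and Plcg2 (-0.49, SE 0.16). Of the 12 inhibitory genes only Inpp5d, the lipid phosphatase recruited by Fcgr2b, was called (-0.51, SE 0.12), with a median of -0.28 for the list. Of all genes tested in culture 10.6% were called lower, so 1 call among 12 is near that share. Fcgr2b and Inpp5d both fell in the KO cultures, and a link between these falls was not tested.

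**Figure D5:**
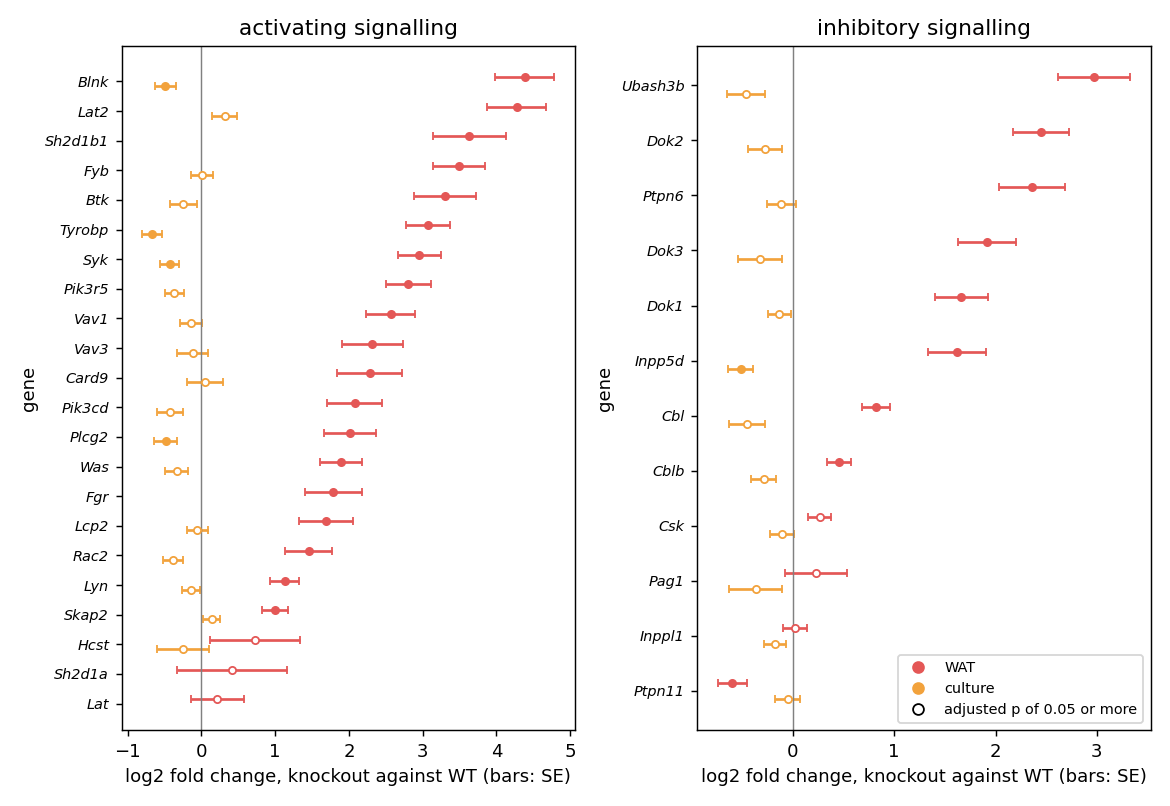
Log2 fold change (KO over WT) of the activating and inhibitory signalling genes in WAT and in culture, with bars of 1 SE; filled points have an edgeR adjusted p under 0.05 and open points do not. Over the tested genes of the lists, of which 1 activating gene is not drawn, 20 of 23 activating and 8 of 12 inhibitory genes are called higher in WAT, and 4 and 1 are called lower in culture.

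Among 42 related receptors, 32 were tested in WAT and 20 were called higher and 2 lower, with a median of 2.59. Lilr4b, the neighbour of Lilrb4a, measured 1.87, 0.793 and 2.03 CPM in WT libraries against 63.4, 33.7 and 47.1 CPM in cKO libraries (log2 fold change 4.94, SE 0.40, edgeR adjusted p = 0.00049). Siglecf, a sialic acid receptor of eosinophils and some macrophages, had 0 reads in the WT libraries and 61, 25 and 80 reads in the cKO libraries, and Slamf6, a SLAM relative of Cd84, had 0, 2 and 0 reads in WT and 56, 26 and 13 in cKO. The falls were in Fcamr, a receptor for IgA and IgM (-2.69, SE 0.52, edgeR adjusted p = 0.00493), and in Fcgrt, the neonatal Fc receptor that recycles IgG, which went from 599 ± 67.3 to 387 ± 66.1 CPM (-0.63, SE 0.17, edgeR adjusted p = 0.0197; 0.05 with library size as the only scaling). So the receptor that salvages IgG did not move with Fcgr1 to Fcgr4. In the cultures 22 were tested, 4 were called lower and 2 higher, with a median of -0.14. Siglec1 (-1.19, SE 0.12), Sirpa (-0.59, SE 0.12), Cd33 (-0.63, SE 0.16) and Lilra5 (-1.16, SE 0.39) fell, and Siglece (1.38, SE 0.49) and Trim21 (0.55, SE 0.19) rose, the last pair only with TMM or RLE scaling.

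Cd22 is best known from B cells, so their markers were read beside it. In WAT 8 of 11 B cell markers were tested and 4 were called higher, 0 lower: Cd37 (2.31), Spib (1.75), Cd79b (1.53) and Bank1 (1.30). Their sum was 13.4 to 17.4 CPM in WT and 35.2 to 68.6 CPM in cKO, most of it from Cd37, which other leukocytes also express. Cd79a, part of the B cell antigen receptor, had 54, 34 and 21 in WT and 48, 17 and 25 in cKO. The CPM groups of Cd79a overlapped, unlike those of Cd22. Ms4a1 had 0, 2 and 0 reads in WT and 5, 10 and 9 in cKO. Pax5 had 3, 12 and 0 reads in WT and 15, 4 and 28 in cKO. In the cultures the B cell markers summed to 23.6 to 27.7 CPM in WT and 16.5 to 21.4 CPM in KO. Cd37 made up most of this, at 21.9 ± 2.30 CPM in WT and 14.7 ± 2.38 CPM in KO, followed by Bank1 at 3.80 ± 1.64 and 3.56 ± 0.660 CPM (SD, n = 3 each). Cr2, Cd79a, Cd79b and Fcer2a had from 0 to 12 reads per culture, and Ms4a1, Pax5, Blk and Spib had 0 reads in all 6. The part of B cells in the values of Cd22 was not tested. Antibody genes, which include those of IgG, the ligand of Fcgr1 to Fcgr4, can be described only in part. In WAT 1 of the 13 listed antibody genes, Jchain, was analysed here (log2 fold change 1.17, edgeR adjusted p = 0.12), so the level of the other 12 in WAT is unknown. In the cultures 1 gene, Ighm, passed the count filter, with a log2 fold change of 0.06. The IgG genes Ighg1, Ighg2b, Ighg2c and Ighg3 had means of 0 CPM in both the WT and the KO cultures.

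The other cell types whose markers were read beside the receptors moved in several directions in WAT. Of 12 markers of lipid-laden macrophages 9 were called higher and 0 lower, led by Atp6v0d2 (8.46) and Mmp12 (7.35), as were 5 of 6 tested mast cell markers, led by Tpsb2 (3.61) and Cma1 (3.55), and 5 of 8 dendritic cell markers, led by Batf3 (2.05) and Xcr1 (1.81). Of 13 T and NK cell markers 0 were called, with 3 higher under library size scaling. Of 4 tested neutrophil markers Csf3r (2.94) and S100a8 (1.34) were higher and Mmp9 (-2.24) lower. Of 8 plasma cell markers Sdc1 (3.01) and Prdm1 (2.58) were higher and Irf4 (-2.58) and Xbp1 (-1.10) lower, and of 9 endothelial markers 3 were higher, led by Stab2 (4.67) and Stab1 (1.36), and 5 lower, led by Cldn5 (-1.45) and Cdh5 (-1.07). Adipocyte markers were lower in 7 of 8, led by Cfd (-5.02) and Pnpla2 (-2.68). With library size as the only scaling these counts changed: endothelial markers were 3 higher and 1 lower (Cldn5), plasma cell markers 3 higher and 0 lower, lipid-laden macrophage markers 12 higher, dendritic cell markers 8 higher, and adipocyte markers 6 lower. In the cultures, lipid-laden macrophage markers were called lower in 2 of 12 and higher in 1, endothelial markers lower in 4 of 9 and adipocyte markers higher in 3 of 7. There, 1 tested gene each of the B cell (Cd37, -0.58), T and NK cell (Thy1, -0.40) and neutrophil (Mmp9, -1.20) lists was called lower. Only 2 of 11 B cell, 2 of 13 T and NK cell and 2 of 9 neutrophil markers passed the count filter in culture. Each of these calls rests on 1 gene and does not describe the cell type. Of the plasma cell, mast cell and dendritic cell markers 0 were called. The part of these cell types in the receptor values was not tested.

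For each receptor, the gene outside the 10 with the closest profile over the 12 libraries was found among 12762 genes, by the root mean square (rms) difference of centred log2 CPM. Fcgr3 was closest to Fermt3 (rms 0.085), Fcer1g to Otulinl (0.18), Pirb to Galnt6 (0.20), Fcgr1 to Syk (0.20), Fcgr2b to Dab2 (0.20), Fcgr4 to Snx20 (0.21), Lilrb4a to its neighbour Lilr4b (0.22), Cd22 to Myo1f (0.25), Cd84 to Cd200r1 (0.26) and Fcrls to Bsn (0.27). Within the 10 genes the closest pair was Fcgr3 and Fcer1g (rms 0.22), and Lilrb4a was the farthest from any other, at 1.01 from Cd84. This is a description over libraries that share their groups.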

How the data were processed

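Per the labels' protocols, TRIzol was used to extract total RNA and the MGIEasy kit for mRNA to prepare libraries. HISAT2 2.1.0, cutadapt 1.11, FastQC 0.11.2 and build GRCm38 appear, without roles, in the submitters' processing notes. Which tool, annotation and strand setting made the counts is not given in the sources used here, so overlapping or near-identical genes cannot be separated. The authors deposited raw counts of reads as whole numbers, with WAT and cultures in separate tables, 3 libraries in each of 4 groups and 0 unassigned columns of values.

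The counts were tested with edgeR 4.0.16 in R 4.3.3: filterByExpr with a minimum count of 10, TMM scaling, the quasi-likelihood test and Benjamini-Hochberg adjustment over all genes tested. Each comparison of cKO or KO with WT used its own 6 libraries. The difference between settings was an interaction term over all 12 libraries, on 14463 genes. Common biological variation was 0.319 in WAT and 0.114 in the cultures. The standard error is the log2 fold change divided by the square root of F. Levels per length used merged exons of the GENCODE M21 annotation of GRCm38, and profile likeness used log2(CPM + 0.5) of genes with a mean of at least 1 CPM. The scripts were tested on simulated data.

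The 10 receptors and the other gene lists were chosen with earlier results of these data known. All 10 receptors are named; from each list, the genes named are the 2 with the largest called rise and fall in WAT (3 for signalling and related receptors), and B cell markers beside Cd22. Outside this rule, Syk, antibody genes and some of the genes of the lists called in culture are named, chosen after their values were seen. The values of 2 genes of these lists are not reported here, though the list counts and sums include them. The counts of no pair of replicates agreed within sampling noise. Alternatives were RLE scaling, library size only, no count filter, DESeq2 1.42.0, limma voom 3.58.1, a replicate block, each library left out, numbered gene copies summed, 1 fit over all groups, a test for at least a 2-fold change, and cultures thinned to the smallest total (added after seeing the data).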

Additional observations from a re-analysis of the deposited data

Results flagged for a closer look

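The change between genotypes differed between WAT and the cultures for all 8 receptors with a p, by the interaction term of edgeR's quasi-likelihood fit over 12 libraries. The values are log2 fold changes in WAT minus those in culture, and 27.7% of all 14463 genes were called higher in this comparison. Cd84 differed by 5.49 (SE 0.47, edgeR adjusted p = 5.81e-06) and Cd22 by 5.25 (SE 0.48, edgeR adjusted p = 8.04e-06), the largest of the 8. Pirb differed by 3.74 (SE 0.32, edgeR adjusted p = 5.79e-06). Among the activating receptors and their chain, the difference was 3.31 for Fcgr1 (SE 0.31, edgeR adjusted p = 9.02e-06), 3.01 for Fcer1g (SE 0.34, edgeR adjusted p = 2.96e-05), 2.90 for Fcgr3 (SE 0.30, edgeR adjusted p = 1.82e-05) and 2.42 for Fcgr4 (SE 0.42, edgeR adjusted p = 0.000462). The inhibitory Fcgr2b differed by 2.35 (SE 0.21, edgeR adjusted p = 6.66e-06), with a rise in WAT and a fall in culture. Tissue, age and culture differ together between the settings and cannot be told apart.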

How the results depend on the processing

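All 8 tested receptors were called higher in WAT, and in the difference between settings, under RLE scaling, library size only, no count filter, DESeq2, limma voom, the replicate block and the summed copies, and with each library left out. In culture the 5 calls held under those settings that keep every library, and with the cultures thinned, but fell to 1 (Fcgr2b) without WT replicate 2 and in 1 fit over all 4 groups, where 146 genes were called in place of 2459. A test for at least a 2-fold change called 2100 genes in WAT in place of 8542. Leaving out 1 library gave 6456 to 8595 called genes in WAT, 897 to 3380 in culture, 6193 to 7582 for the difference, and 1 to 5 receptors in culture; the culture count was 1499 without WT replicate 1, 897 without WT replicate 2, 1528 without KO replicate 1 and 1511 without KO replicate 2. Receptors called in culture numbered 3 without KO replicate 2 or 3. Fcgr1 in culture was at 0.076 without WT replicate 2, in place of -0.15 (edgeR adjusted p = 0.852), and the range without 1 library was -0.28 to 0.076. The Fcrls difference between settings ran from -0.14 to 0.29 without 1 library. The cause of these changes was not tested.

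Pairing of libraries by replicate number was not seen in WAT. The correlation of same-numbered deviations was -0.33, 0.03 and -0.23 there, and that of other pairs -0.01 to 0.34. In culture it was 0.18, 0.03 and 0.24 for same numbers and -0.23 to 0.07 for other pairs. Whether the numbers pair the cultures is therefore not settled. With the replicate block 7258 genes were called in WAT, 3824 in culture and 6668 for the difference, the 8, 5 and 8 receptors stayed called, and the Fcrls difference was -0.0087. Few reads limit Cd22 in WT WAT.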
